A study of Mus musculus with 12 samples.

Results

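Tbx21, Ifng, Il12rb1, Il12rb2, Cxcr3 and Eomes are 6 genes of the T helper 1 (Th1) programme. They were taken by symbol, 6 of the 19057 on the array, with every probe annotated to them, which gave 9 of 45281 probes. Tbx21, Il12rb2 and Cxcr3 had 1 probe each, and Ifng, Il12rb1 and Eomes had 2 each.

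Th1 cells are the CD4+ helper T cells that defend against intracellular microbes. Interleukin-12 binds a receptor made of the chains encoded by Il12rb1 and Il12rb2 and signals through STAT4. The T-box factor T-bet, encoded by Tbx21, then drives Ifng, the gene of interferon-gamma, and Cxcr3, the chemokine receptor that guides Th1 cells to inflamed tissue. Eomes encodes eomesodermin, a T-box relative of T-bet best known from cytotoxic lymphocytes.

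Gene expression was measured on 12 Illumina mouse arrays with RNA from splenic CD4+ T cells of mice 2 months old. The sample labels name the strain B6.Cg-Tg(TcraTcrb)425Cbn/J, which carries a transgenic T cell receptor, while C57BL/6 is named in the design text. Which strain was used is therefore uncertain, and all 5 groups carry the same strain label. In one experiment naive CD4+ T cells were treated with interleukin-7 (IL-7), a survival cytokine of naive T cells, for 0, 6 or 24 h (n = 2 arrays at each). The other held Th9 cells, helper cells named for interleukin-9, made by culturing naive CD4+ T cells for 3 days either directly (n = 3) or after 48 h of IL-7 (n = 3). The time course has no untreated cells at 6 or 24 h, so IL-7 and time in culture cannot be told apart there. Both later times share the arrays at 0 h. No Th9 group is described as kept for 48 h without IL-7 before the culture. In the Th9 experiment, too, IL-7 and those 48 h cannot be told apart. Each experiment lay on its own BeadChip, so chip and cell type cannot be told apart either. The sources used here do not say that replicates were separate animals or cultures. A p-value therefore reflects no more than the spread among these arrays, and that spread may be technical. The RNA came from bulk cells, in which fewer cells of a type and less RNA per cell cannot be told apart.

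The arrays' mean signals were 158 to 245 for the naive cells and 116 to 222 for the Th9 cells. The T cell label held on all 12 arrays, with 7 of 8 T cell markers detected on each, and Il9 had signals of 238 to 1101 on the Th9 arrays against at most 2.9 on the naive ones. Cd8a was detected on no array, while Cd8b1 had signals of 1063 to 1999 on the naive arrays and 291 to 693 on the Th9 arrays. The array of 6 h replicate 1 stood apart. Its 6 measured B cell markers summed to a signal of 10367, against 147 to 630 on the other naive arrays, and its 10 myeloid markers to 3977, against 961 to 1478. Most of the B cell sum came from genes of antigen presentation, which are not confined to B cells. Cd74 read 4418.3, H2-Ab1 2675.4, H2-Eb1 1570.9 and H2-Aa 1404.9, while Cd79b read 292.1 and Ms4a1 was not detected. The 6 h changes of the 6 genes, and those of the further Th1 genes called at that time, are given below with and without this array. A fit without a naive array leaves a single array at that time and holds no spread there. Such a fit gives the size of a change at that time but does not test it. Calls counted over such fits describe the dependence on single arrays.

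Promoters are shown first, because IL-7 signals through STAT5 and T-bet is a T-box factor. They are those that held a match, and that of Tbx21, the gene of T-bet itself. RefSeq promoter sequences (GRCm38.p6, 250 bases before to 50 after the annotated start) were at hand for 5 of the 6 genes, all but Il12rb1. All 5 were searched on both strands for the STAT-type letters TTCNNNGAA, for the T-box core TCACAC and for the longer T-box half-site TCACACCT, which contains that core. Capitals mark the matches, and each sequence runs 5′ to 3′ along the gene's strand.
Tbx21, chr11:97115282-97115581, minus strand: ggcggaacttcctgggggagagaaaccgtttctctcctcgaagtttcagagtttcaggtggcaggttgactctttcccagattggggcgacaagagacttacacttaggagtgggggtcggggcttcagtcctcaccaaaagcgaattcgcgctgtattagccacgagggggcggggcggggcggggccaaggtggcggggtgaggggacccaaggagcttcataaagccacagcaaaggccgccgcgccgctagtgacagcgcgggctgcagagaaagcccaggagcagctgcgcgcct
Ifng, chr10:118440796-118441095, plus strand: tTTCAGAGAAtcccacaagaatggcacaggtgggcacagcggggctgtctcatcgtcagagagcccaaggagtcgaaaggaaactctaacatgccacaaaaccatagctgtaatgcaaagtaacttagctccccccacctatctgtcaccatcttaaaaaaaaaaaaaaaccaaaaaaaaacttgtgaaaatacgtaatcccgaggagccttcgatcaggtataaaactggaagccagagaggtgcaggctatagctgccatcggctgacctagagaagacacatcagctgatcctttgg
Il12rb2, chr6:67376139-67376438, minus strand: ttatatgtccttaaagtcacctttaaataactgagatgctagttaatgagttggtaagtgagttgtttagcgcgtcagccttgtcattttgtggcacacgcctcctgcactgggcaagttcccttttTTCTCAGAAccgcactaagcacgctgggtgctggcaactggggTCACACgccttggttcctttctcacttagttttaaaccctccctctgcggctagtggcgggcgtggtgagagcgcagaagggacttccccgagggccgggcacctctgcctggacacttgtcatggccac
Cxcr3, chrX:101734098-101734397, minus strand: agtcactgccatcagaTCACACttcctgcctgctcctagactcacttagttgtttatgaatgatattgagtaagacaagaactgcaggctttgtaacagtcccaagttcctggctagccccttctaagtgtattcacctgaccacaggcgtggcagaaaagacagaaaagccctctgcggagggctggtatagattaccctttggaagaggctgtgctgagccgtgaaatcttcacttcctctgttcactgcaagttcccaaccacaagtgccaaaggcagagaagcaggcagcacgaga

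The STAT-type letters begin at position -249 from the start of Ifng and at position -123 of Il12rb2, and 8.3% of the 32851 promoters of this length hold such a match. The T-box core begins at position -80 of Il12rb2 and -234 of Cxcr3, and 14.5% of promoters hold it. The half-site was in none of the 5 windows, and 1.28% of promoters hold it. The windows of Tbx21 and Eomes held no match to any of these letters. A match of letters is a description of the sequence and no measurement of binding.

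Most of the 9 probes lay near the limit of detection. A probe was taken as detected where its deposited detection p was under 0.01, and the lowest signal so detected ran from 11.8 to 23.1 between arrays. Of 108 pairs of probe and array, 43 were detected, and 8 of the 9 probes were detected on at least 1 array. Genes entered the tests when detected on 2 or more of the 6 naive arrays, or 3 or more of the 6 Th9 arrays. Ifng and Cxcr3 passed in the naive experiment, and Ifng, Il12rb1 and Il12rb2 in the Th9 experiment. Eomes passed in neither. Tbx21 also passed in neither, but entered the fit over all 12 arrays, which required detection on 2 of them.

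**Figure D1:**
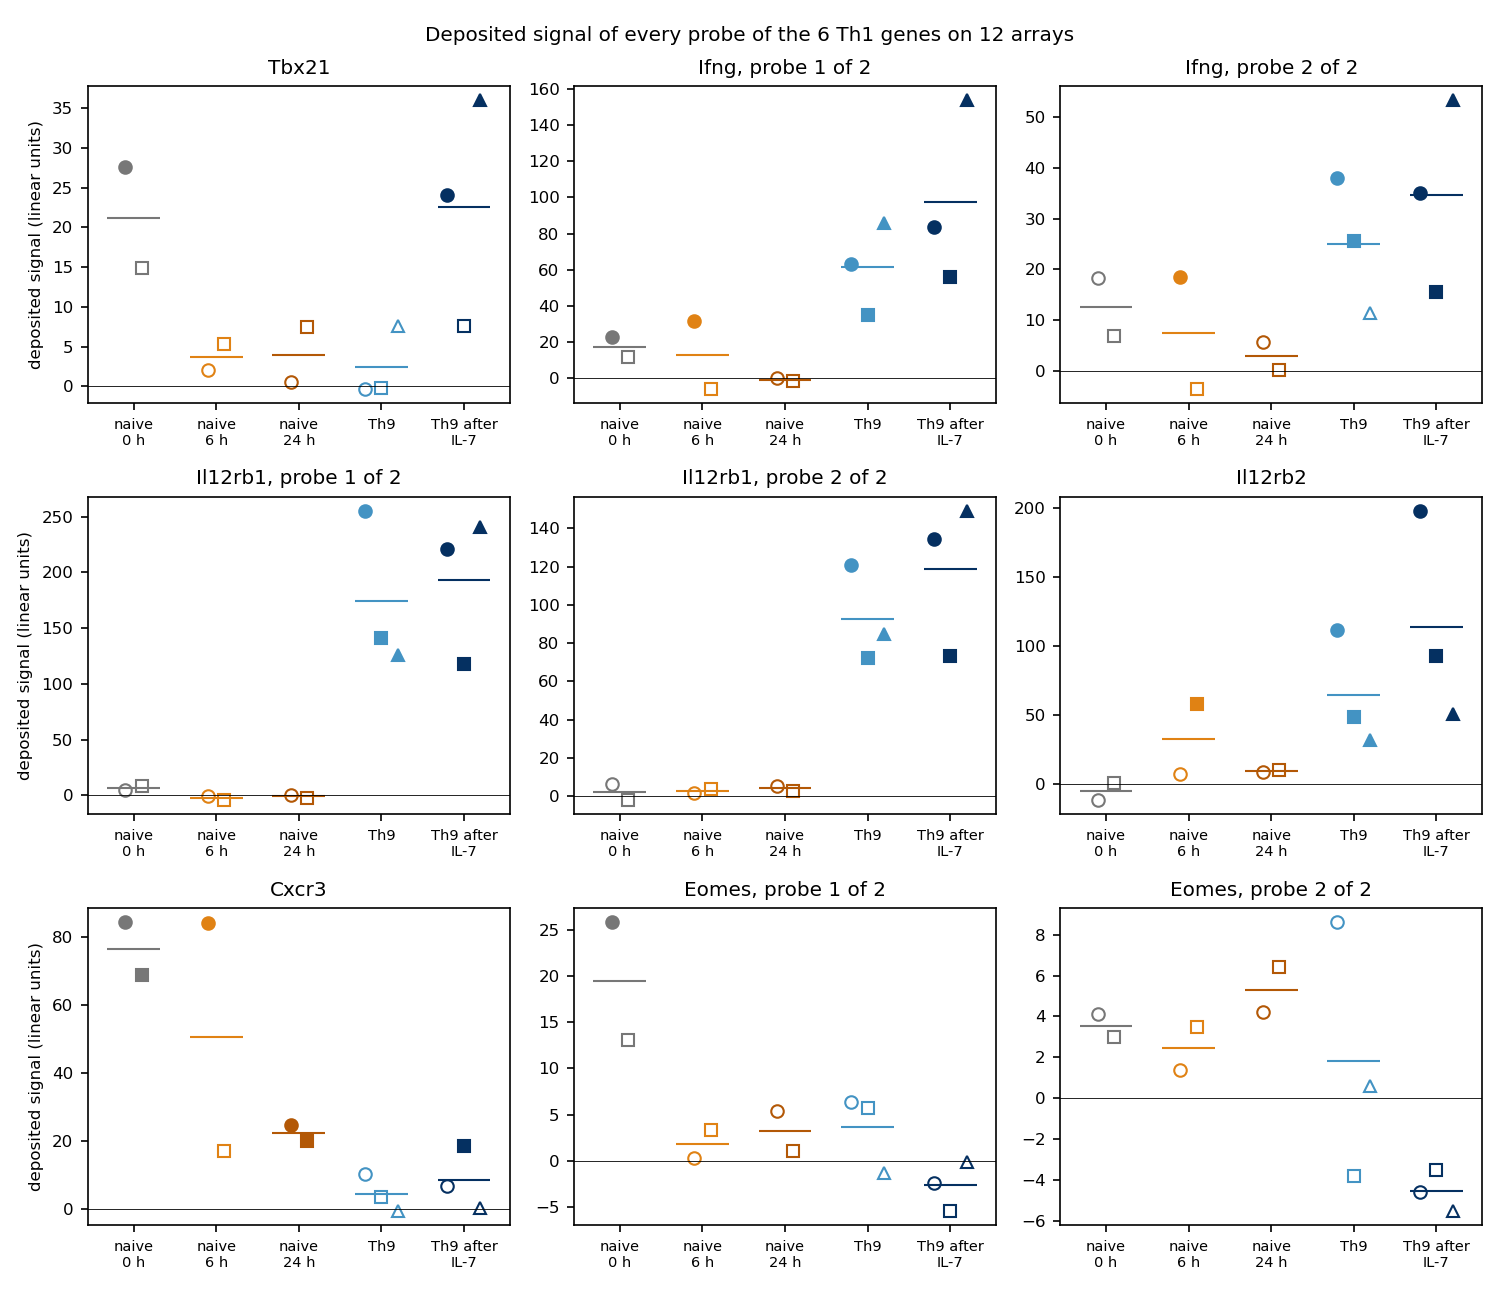
Deposited background-subtracted signal (linear units, own scale in each panel) of the 9 probes on every array, by group. Circles, squares and triangles are replicates 1, 2 and 3, filled where the detection p was under 0.01, and lines are group means. Il12rb1 is detected on the 6 Th9 arrays and on none of the naive ones, Cxcr3 mainly on the naive arrays, and Tbx21 on 3 arrays in all.

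Tbx21 was highest in naive cells at 0 h and in Th9 cells grown after IL-7. Its signal was 27.6 and 14.9 on the arrays at 0 h, of which the first was detected. It was 2 and 5.3 at 6 h and 0.5 and 7.4 at 24 h, with no detection. The 2 arrays at 0 h thus lay above all 4 later ones. In Th9 cells the signal was -0.3, -0.2 and 7.6 without IL-7, none detected, and 24.1, 7.6 and 36 after IL-7, with the first and the third detected. After normalisation the lowest of the IL-7 arrays lay above the highest array without IL-7, although both had a deposited signal of 7.6.

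On the log2 scale (normalised within each experiment, with an offset of 16 that shrinks differences between dim probes), Tbx21 stood at 5.14 ± 0.20 (SD, n = 2) at 0 h, 4.45 ± 0.08 at 6 h and 4.50 ± 0.21 at 24 h. With the undetected group set to the lowest detected level of each array, the mean of Tbx21 was 1.07-fold lower at 6 h than at 0 h. No fold can be given for 24 h. In Th9 cells the gene stood at 4.45 ± 0.17 (n = 3) without and 5.22 ± 0.43 after IL-7, 1.17-fold higher when set in the same way. The higher group holds an undetected array in both cases, so neither fold is a strict minimum. None of these differences was tested, because too few arrays detected the gene. Groups that did not overlap, with the later or IL-7 group lower, made up 32.2% of the features tested at 6 h and 32.1% at 24 h, and with the IL-7 group higher 6.36% of those tested in Th9 cells.

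Eomes was detected on 1 of the 12 arrays. Its first probe had a signal of 25.8, detected, and 13.1 at 0 h. At 6 h it was 0.3 and 3.3, and at 24 h 5.4 and 1, so the arrays at 0 h again lay above the later ones. Arrays apart in this direction were seen for 32.2% of the features tested at 6 h and 32.1% at 24 h. The log2 means were 5.06 ± 0.23 at 0 h, 4.39 ± 0.07 at 6 h and 4.42 ± 0.07 at 24 h. In Th9 cells the signals were 6.4, 5.7 and -1.3 without IL-7 and -2.4, -5.4 and -0.1 after it, all below detection. The second Eomes probe was detected nowhere, with signals from -5.5 to 8.6, and did not show the difference at 0 h.

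Il12rb1, the receptor chain shared by interleukin-12 and interleukin-23, separated Th9 cells from naive cells. On the 6 naive arrays its first probe had signals of -3.9 to 8.1 and its second -1.8 to 6.6, none detected. In Th9 cells without IL-7 the first probe read 254.6, 141.1 and 125.7, and after IL-7 221.2, 118 and 240.9, all detected. The second probe read 120.7, 72.2 and 84.7 without and 134.6, 73.2 and 148.9 after IL-7. Within the Th9 experiment the first probe stood at 7.46 ± 0.16 without and 7.76 ± 0.18 after IL-7, a log2 fold change of 0.30 ± 0.16 (SE), and the groups overlapped (limma, adjusted p = 0.585). The second probe was 0.45 ± 0.15 higher, at an unadjusted p of 0.0162 and an adjusted p of 0.371 in a limma fit of every probe. Its groups did not overlap, as for 6.36% of the features tested with the IL-7 group higher.

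Il12rb2 encodes the chain through which the interleukin-12 receptor signals. Its signal was -11.3 and 0.7 at 0 h, 7.5 and 58.2 at 6 h and 9 and 10 at 24 h. Only 6 h replicate 2 was detected among these, so the higher mean at that time rests on 1 array. The log2 means were 4.26 ± 0.13, 5.45 ± 1.09 and 4.68 ± 0.14. Undetected groups were again set to the lowest detected level of each array. The 6 h mean was then 1.33-fold above that at 0 h and 1.24-fold above that at 24 h, untested. This mean holds an undetected array, so neither fold is a strict minimum, and the arrays at 6 h overlapped those at 24 h.

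In Th9 cells Il12rb2 was detected on all 6 arrays. It read 111.5, 48.5 and 32.2 without IL-7 and 197.3, 92.4 and 50.9 after IL-7. The groups overlapped, and the spread between arrays was wide, at 6.13 ± 0.40 and 6.98 ± 0.90 (SD) on the log2 scale. The log2 fold change was 0.85 ± 0.40 (SE; limma, unadjusted p = 0.0658, adjusted p = 0.545).

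Ifng, the signature cytokine of Th1 cells, was read by 2 probes. In naive cells the first had 22.4 and 11.3 at 0 h, 31.7 and -6.1 at 6 h and -0.2 and -2.1 at 24 h. Only replicate 1 was detected at 0 and at 6 h, and neither array at 24 h. The second probe gave 18.3 and 6.9, then 18.6 and -3.4, then 5.8 and 0.2, again with its lowest mean at 24 h. Log2 means of the first probe were 4.96 ± 0.22 at 0 h, 5.02 ± 1.14 at 6 h and 4.31 ± 0.03 at 24 h. The change at 6 h was 0.05 ± 0.48 (limma, adjusted p = 0.952). The arrays at 24 h did not overlap those at 0 h, with an adjusted p of 0.441 in limma, and no fold is given because the gene was not detected at 24 h.

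The tests of Ifng in naive cells depended on which array entered. Without 6 h replicate 2 the gene was 0.86 higher at 6 h than at 0 h, a value that rests on a single 6 h array. Without 6 h replicate 1, the array with the high sums of the B cell and myeloid lists, or without 0 h replicate 1, Ifng was detected on 1 naive array. It was then no longer tested. Without 0 h replicate 2 the 6 h change was -0.11, with a single array left at 0 h.

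In Th9 cells the first Ifng probe was detected on all 6 arrays. It read 63.2, 34.5 and 86.1 without IL-7 and 83.4, 56 and 153.9 after IL-7. The second probe read 38, 25.6 and 11.4 and then 35, 15.6 and 53.2. Both probes had the higher mean after IL-7 and both overlapped between groups. The first stood at 6.16 ± 0.56 without and 6.84 ± 0.38 after IL-7, a log2 fold change of 0.68 ± 0.29 (SE; limma, unadjusted p = 0.0448, adjusted p = 0.478). The second had a log2 fold change of 0.41 ± 0.24 (adjusted p = 0.669 in limma's fit of every probe).

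Cxcr3 was the member best measured in naive cells. Its signal was 84.2 and 68.7 at 0 h, both detected, and 24.8 and 20 at 24 h, both detected. At 6 h it was 84 on replicate 1 and 17.2 on replicate 2, the latter just short of detection with a detection p of 0.0107. The replicates at 0 h and at 24 h lay close together, while those at 6 h spanned the whole range. The log2 means were 6.44 ± 0.05 at 0 h, 6.01 ± 1.34 at 6 h and 5.23 ± 0.09 at 24 h. The change was -0.43 ± 0.55 at 6 h (limma, adjusted p = 0.647), -1.21 ± 0.55 at 24 h (adjusted p = 0.236) and -0.78 ± 0.55 between 6 and 24 h (adjusted p = 0.5).

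The limma fit shares 1 estimate of spread between the 3 times, and the 6 h arrays set it for Cxcr3. With the 4 arrays at 0 and 24 h alone, the difference of -1.21 had an SE of 0.12 (limma, adjusted p = 0.000367). In that fit 2466 of 10682 features were called, against 682 of 11065 with all naive arrays, so such a call was common there. The difference was -1.23 when 6 h replicate 1 was left out and -1.21 when 6 h replicate 2 was. Leaving out any array at 0 or 24 h kept the direction, at -1.28 to -1.14, with an adjusted p of at least 0.485. At 6 h the sign itself depended on the array. Cxcr3 was 1.40 lower than at 0 h without replicate 1 (log2 fold change -1.40) and 0.53 higher without replicate 2. Each of these values rests on a single 6 h array.

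In Th9 cells Cxcr3 was detected on 1 of 6 arrays. It read 10.2, 3.6 and -0.4 without IL-7 and 6.9, 18.7 and 0.5 after IL-7, and only the 18.7 was detected. The groups overlapped and the gene was not tested there.

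In all, 0 of 2 tested members passed at 6 h, where 9.43% of all features were called and 29.2% had an unadjusted p under 0.05. At 24 h it was 0 of 2 again, against 6.16% called and 25.3% by unadjusted p, and both arrays of each group were apart for Ifng and Cxcr3, as for 63.3% of features. Between 6 and 24 h 0 of 2 passed, against 0.398%. In Th9 cells 0 of 3 passed, against 0.343% called, and 1 of the 3, Ifng, had an unadjusted p under 0.05, against 9.92% of features. The medians of the tested members were -0.19 at 6 h and 0.68 in Th9 cells, where those of all features tested were -0.03 and -0.01. No median is given for 24 h, where Ifng was not detected. Over few members, these medians are a description.

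**Figure D2:**
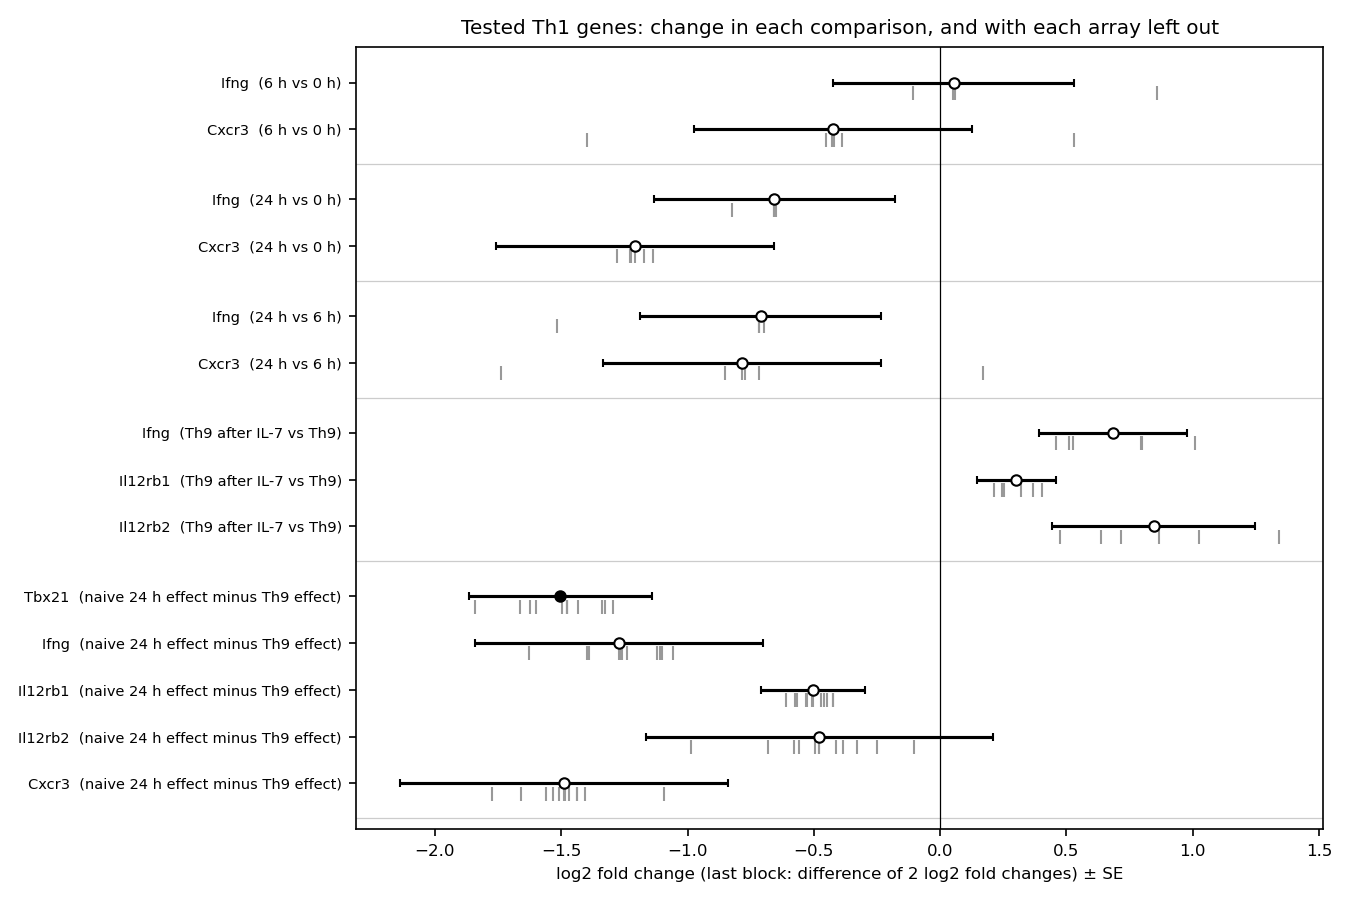
Log2 fold change (point) with its standard error (bar) for each tested Th1 gene in each comparison, with the last block showing the difference between the naive 24 h effect and the Th9 effect. Filled points have an adjusted p under 0.05, and grey ticks are the values with 1 array left out in turn. Tbx21 in the last block, at -1.50, is the filled point, Cxcr3 at 6 h has ticks from -1.40 to 0.53, and Ifng was not detected on the arrays at 24 h.

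The difference between the naive and the Th9 effect was tested with all 12 arrays in 1 fit. The contrast sets 24 h against 0 h in naive cells beside IL-7 against none in Th9 cells, and was tested for 5 members. Naive cells were read after 24 h of IL-7, and Th9 cells after 48 h of IL-7 and then 3 days of culture. The contrast therefore cannot show whether IL-7 itself acted differently. For Tbx21 the naive effect was -0.53, the Th9 effect 0.97 and the difference -1.50 ± 0.36 (SE; limma, adjusted p = 0.0468). It was the only member called, where 3.75% of all features were called and 1.69% in this direction. The gene entered this fit through 3 detected arrays, 0 h replicate 1 and replicates 1 and 3 of the Th9 cells given IL-7. These belong to the groups whose high values put the difference below 0, so the filter and the call are not independent. The other group on each side was below detection on every array, and the values are given as a description near background, not as support for a difference.

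Of the other 4 members tested, 0 passed, with adjusted p-values of 0.224 to 0.786 in limma. Each of them was undetected on every array of at least 1 of the 4 groups compared, so no difference is given for them. That group was 24 h for Ifng, 0 h and 24 h for Il12rb1 and Il12rb2, and Th9 without IL-7 for Cxcr3.

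The call for Tbx21 was close to the threshold. It was kept with median scaling, at an adjusted p of 0.0436, and lost when deposited signals were floored instead of background-modelled, at -0.90 with adjusted p = 0.322. It was also lost with no filter on dim probes (adjusted p = 0.11) and with every probe as a feature (0.0511). With 1 array left out it lay between -1.84 and -1.29, and the adjusted p ran from 0.00783, without replicate 2 of the Th9 cells given IL-7, to 0.199, without 24 h replicate 1. It was called without either 6 h array or without that Th9 array, and in none of the other 9 fits.

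On the joint scale, which orders the 5 groups, Tbx21 stood at 5.44 ± 0.53 in Th9 cells after IL-7 and 5.01 ± 0.16 in naive cells at 0 h, which overlapped, and at 4.45 to 4.48 in the other 3. Ifng ran from 7.20 ± 0.38 in Th9 cells after IL-7 and 6.49 ± 0.59 without, which overlapped, to 4.31 ± 0.03 in naive cells at 24 h. Its levels at 0 h and 6 h, 4.86 and 4.90, overlapped each other. Il12rb1 was at 8.10 ± 0.17 and 7.80 ± 0.15 in the Th9 groups and at most 4.53 in naive cells. Il12rb2 stood at 7.32 ± 0.92 and 6.46 ± 0.43 in the Th9 groups, at 5.31 ± 0.94 at 6 h, and lower at 24 h and 0 h. Cxcr3 ran the other way, from 6.18 ± 0.05 at 0 h through 5.81 ± 1.23 at 6 h and 5.08 ± 0.08 at 24 h to 4.91 ± 0.73 and 4.51 ± 0.15 in Th9 cells after and without IL-7, and each of these overlapped the next. Eomes (first probe) was at 4.95 ± 0.19 at 0 h and at 4.30 to 4.50 elsewhere. Levels set across the experiments also cross chips.

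**Figure D3:**
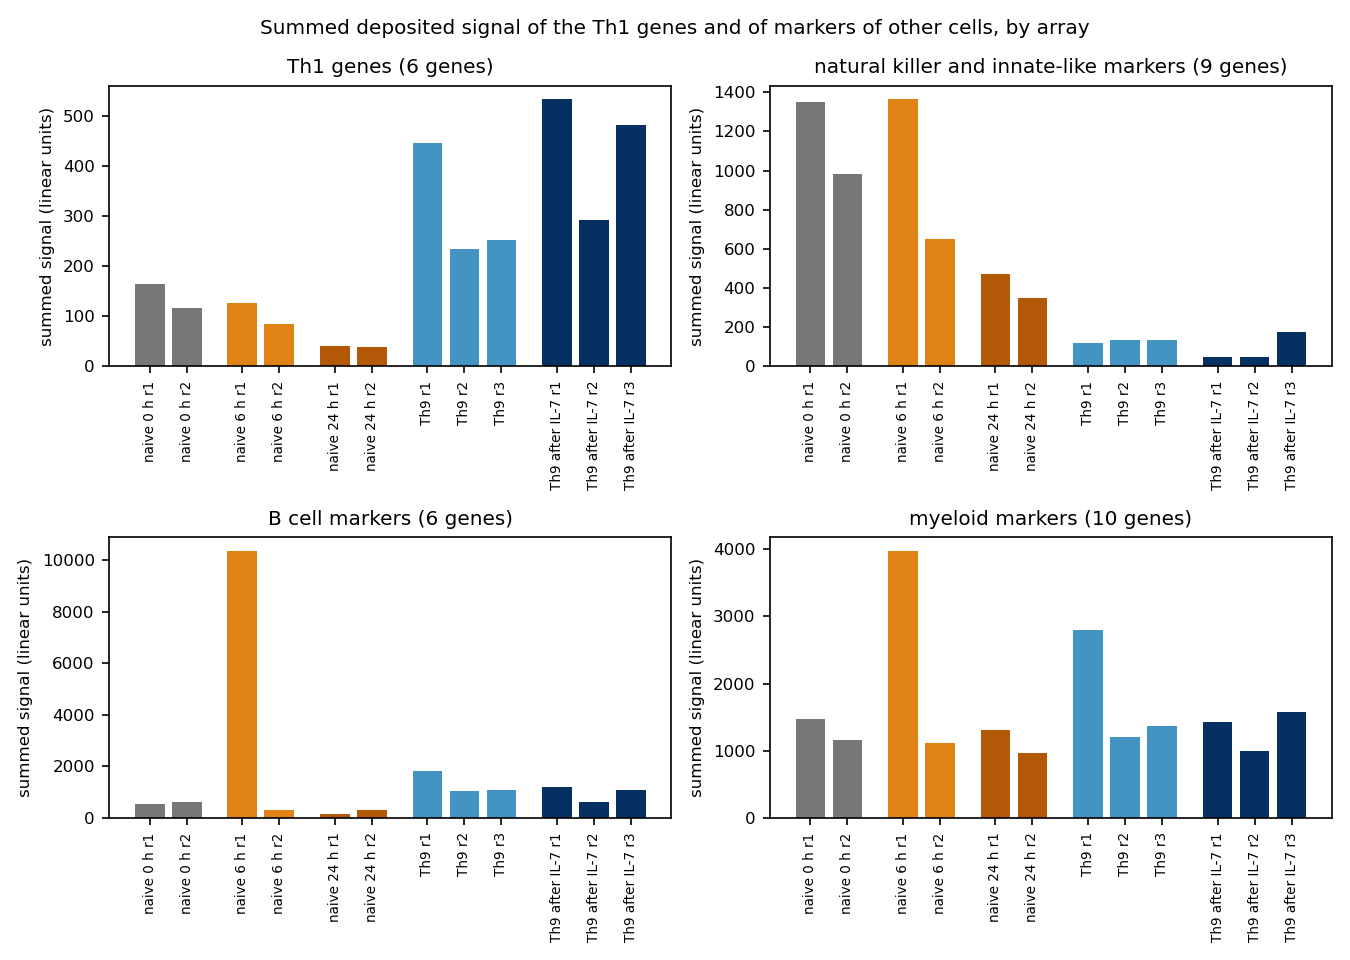
Summed deposited signal (linear units, brightest probe per gene) of the 6 Th1 genes and of marker lists of other cells, on each array (r1 to r3, replicates). The B cell and myeloid sums peak on 6 h replicate 1. Among naive arrays the sums of the Th1 genes, the natural killer and innate-like markers and the B cell markers are lowest at 24 h.

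Natural killer and innate-like lymphocytes also use T-bet, Eomes, Cxcr3 and Ifng. In naive cells the summed signal of their markers was lower at 24 h than at 0 h, like that of the 6 Th1 genes. This was not particular to these markers. The T cell marker sums were 34170 to 43079 at 0 h and 24667 to 30491 at 24 h, and the B cell and Th9 marker sums were lower too. Sums of the CD8, myeloid, and naive and memory lists overlapped between these times. The summed signal of 9 such markers was 980 to 1352 at 0 h, 649 to 1364 at 6 h and 348 to 469 at 24 h, and 46 to 173 on the Th9 arrays. Of 5 tested at 24 h, 3 fell. Klrd1 fell by 1.33 on the log2 scale, with signals of 735 to 1037 at 0 h and 258 to 357 at 24 h. Klra3 and Klra7, not detected at 24 h, were at least 1.44-fold and 1.55-fold lower. At 6 h 2 of the 5 fell, Klrd1 by 0.76 and Klra3, whose brighter probe was not detected there, at least 1.54-fold. Without 6 h replicate 1 Klrd1 was 0.54 lower at 6 h (log2 difference -0.54). Klra3 was then represented by its other probe, with log2 differences of -0.07 at 6 h and -0.10 at 24 h. That probe read 20.8 and 21.1 at 0 h, 3.4 and 18.1 at 6 h, with the 18.1 detected, and 20.9 and 16.2 at 24 h. Fcer1g and Tyrobp, which natural killer and myeloid cells share, read 782.4 and 265 on 6 h replicate 1 against 81.6 and 11.3 on replicate 2, and did not pass. The other markers tested, Klrd1, Klra3 and Klra7, read 294.1, 7.5 and 2.3 on replicate 1 and 511.7, 16.7 and 19.7 on replicate 2. At these probes Klrd1 was detected on both arrays, Klra7 on replicate 2 alone and Klra3 on neither. Cxcr3 and Ifng (first probe) read 84 and 31.7 on replicate 1 and 17.2 and -6.1 on replicate 2. Ncr1, a defining natural killer receptor, was detected on no array, and Klrb1c on 1, at 0 h. The B cell sums were 526 to 630 at 0 h and 147 to 291 at 24 h, and on 6 h replicate 1 all 5 tested B cell markers, all 5 tested myeloid markers, Ifng and Cxcr3 were, after normalisation, at their highest among the naive arrays. The deposited signal of Cxcr3 was 84 there and 84.2 on 0 h replicate 1. On the Th9 arrays the B cell sums were 1056 to 1813 without and 620 to 1208 after IL-7, and the myeloid sums 1209 to 2801 and 993 to 1581. Cst3 alone read 2761.8, 1182.4 and 1350.2 without and 1377.4, 965.7 and 1526.5 after IL-7, and 1 or 2 of the 10 myeloid markers were detected on each Th9 array. In the B cell sums, Cd74 read 326.4 to 620 and 224.7 to 445.2, and H2-Ab1 397.5 to 828.6 and 286.1 to 642.2. The part of other cells in the values of the Th1 genes was not tested.

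Around these 6 genes, 38 further genes of the Th1 pathway were followed, of which 36 had a probe. At 6 h 24 were tested, 4 rose, 4 fell and 16 did not pass, with a median log2 fold change of 0.06. Over all features 4.10% rose and 5.32% fell. An unadjusted p under 0.05 was reached by 16 of the 24, against 29.2% of features. Bhlhe40, a factor needed for cytokine output of helper T cells, read 19.5 and 14.2 at 0 h and 386.6 and 131.4 at 6 h, and rose by 3.13 ± 0.54 (limma, adjusted p = 0.0239). It read 46.2 and 20.7 at 24 h. Lta, the gene of lymphotoxin alpha, rose by 2.24 ± 0.27 (adjusted p = 0.013). Ifngr1, the ligand-binding chain of the interferon-gamma receptor, rose by 2.12 ± 0.34 (0.0207), and Jak2, a kinase of the interleukin-12 and interferon-gamma receptors, by 1.19 ± 0.19 (0.02).

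The 4 that fell at 6 h included the chemokine gene Xcl1 and the chemokine receptor gene Cxcr6, both detected at 0 h and on neither array at 6 h. Xcl1 was at least 3.35-fold lower and Cxcr6 at least 1.81-fold lower (each with an adjusted p of 0.00927 in limma). Nkg7, a gene of cytotoxic granules, fell by 1.46 ± 0.18 (0.013), and Irf1, an interferon-induced factor that acts on Il12rb1, fell by 0.88 ± 0.16 (0.0257). All 5 probes of Irf1 had the lower mean at 6 h. Without 6 h replicate 1, and so on a single 6 h array, all 8 kept their direction. The log2 fold changes were 2.26 for Bhlhe40, 2.68 for Lta, 2.54 for Ifngr1, 1.41 for Jak2, -1.27 for Nkg7 and -1.05 for Irf1. With no filter on dim probes, or with the compared arrays alone, the calls of Bhlhe40, Ifngr1, Jak2 and Irf1 were lost (adjusted p of 0.0513 to 0.0799). Of these 8 calls, those of Xcl1, Cxcr6 and Nkg7 held in 4 of the 6 fits that leave out 1 array, and the other 5 in 2. More of the further Th1 genes were called when a 6 h array was left out, fewer without an array at 24 h and none without an array at 0 h. The count called over all features moved in the same way, so these changes are not particular to the Th1 genes.

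At 24 h 3 rose and 2 fell of the same 24, with a median of -0.19, where 3.30% of all features rose and 2.86% fell. Of the 24, 12 had an unadjusted p under 0.05, against 25.3% of features. Lta was still 2.05 ± 0.27 higher than at 0 h (limma, adjusted p = 0.0175). Socs1, a feedback inhibitor of cytokine receptors, rose by 0.96 ± 0.18 (0.0379), and Tnf by 0.75 ± 0.13 (0.0304). Irf1 fell by 1.03 ± 0.16 (0.0222), again with all 5 probes in this direction, and Xcl1 was at least 3.13-fold lower (0.011). With no filter on dim probes the calls of Socs1 (0.0867), Lta (0.0571) and Irf1 (0.0527) were lost. Ifngr1 had a log2 fold change of 1.48 ± 0.34 and did not pass (0.0574). Each of these 5 calls held in 2 of 6 fits with 1 array left out, with the calls kept in the fits without a 6 h array. In each of these fits more of the genes were called, while none was when any single array at 0 or 24 h was left out. The count called over all features moved in the same way. From 6 to 24 h, 1 gene rose, Nkg7, by 1.51 ± 0.18 (0.0432), and 0 fell. That call held in 2 of those 6 fits. It was lost with a signal floor (0.0612), with no filter on dim probes (0.105) and with the compared arrays alone (0.158).

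**Figure D4:**
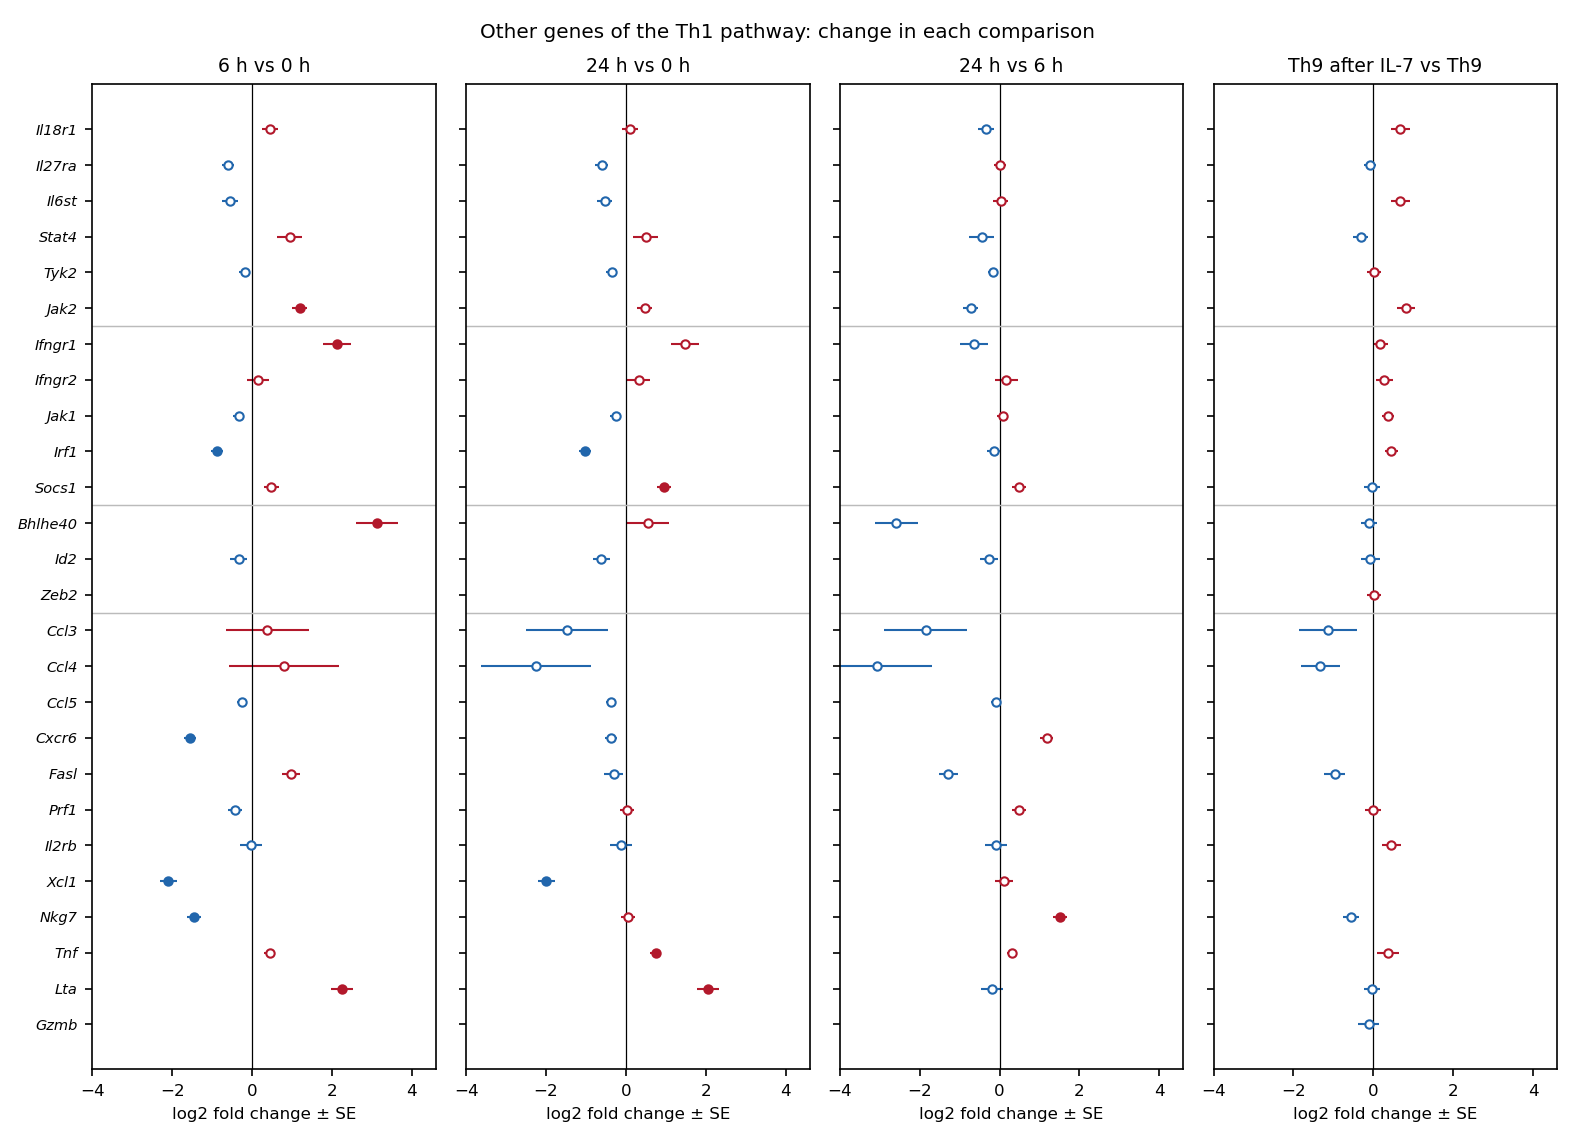
Log2 fold change with its standard error for the other Th1 genes tested, in the 4 comparisons within an experiment, with red for values above 0, blue for values below 0 and filled points for an adjusted p under 0.05. Lines part the lists, from top to bottom cytokine receptors and their kinases, interferon-gamma signalling, transcription factors, and effector and trafficking genes. Filled points lie in the 3 naive comparisons and none in the Th9 comparison.

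By role, the cytokine receptors of this pathway with their kinases and Stat4 had 1 rise and no fall among 6 tested at 6 h. Stat4, one of the 6, had 0.94 ± 0.31 (limma, adjusted p = 0.106), and 1.43 without 6 h replicate 1. Interferon-gamma signalling had 1 rise and 1 fall among 5 at 6 h and again at 24 h. Of the 7 transcription factors that act with T-bet or Eomes, 2 were tested in naive cells, and Runx3, Hlx and Prdm1 were detected on no array. Of 14 effector and trafficking genes with a probe, 11 were tested, with 1 rise and 3 falls at 6 h and 2 rises and 1 fall at 24 h. The ligands of CXCR3, Cxcl9, Cxcl10 and Cxcl11, were tested in neither experiment, and Cxcl9 and Cxcl10 were each detected on 1 array.

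Ccl3 and Ccl4, chemokines of activated T cells and macrophages, were also high on 6 h replicate 1. Ccl3 read 62.7 and 54.2 at 0 h, 234.3 and 9.4 at 6 h and 13 and 6.4 at 24 h. Ccl4 read 133 and 87.3 at 0 h, 815.7 and 21.6 at 6 h and 12.9 and 3.5 at 24 h. Both genes were high on the arrays at 0 h and on 6 h replicate 1 and low on the other 3 naive arrays, the same arrays on which Cxcr3 was high and low. Neither passed in any comparison with all arrays in the fit. Without 6 h replicate 1 the log2 fold changes were -1.47 for Ccl3 and -1.64 for Ccl4 at 6 h, and -1.50 and -2.29 at 24 h. Ccl3 was detected on none of the remaining later arrays and Ccl4 on neither array at 24 h, so these sizes reach into background.

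In Th9 cells 23 of these genes were tested and 0 passed in limma, with a median of 0.00, and 8 had an unadjusted p under 0.05, against 9.92% of features. Jak2 stood at 0.83 ± 0.22 (unadjusted p = 0.00474, adjusted p = 0.224), and Fasl, the death ligand, stood at -0.97 ± 0.26 (unadjusted p = 0.00473, adjusted p = 0.224). For Jak2 all arrays after IL-7 lay above those without, as for 6.36% of the features tested. Il18r1, the interleukin-18 receptor chain of Th1 cells, had 0.68 ± 0.23 (adjusted p = 0.375).

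The difference between the naive 24 h effect and the Th9 effect was called for 4 of 26 further Th1 genes, 1 above and 3 below 0, where 3.75% of all features were called and 1.69% below 0. The median was -0.22 against 0.01 for all features. Lta was above 0, at 1.98 ± 0.35 (limma, adjusted p = 0.0132). Irf1 was below 0, at -1.41 ± 0.22 (0.00898), with a naive effect of -0.99 and a Th9 effect of 0.43. Both genes were detected on all 12 arrays, and both calls held in 8 of the 12 fits that leave out 1 array, lost without any array at 0 or 24 h. Xcl1 (0.0165) and Ccl5 (0.0474) were called below 0 as well. No size is given for these, because Ccl5 was detected on no Th9 array and Xcl1 on neither array at 24 h and on 1 Th9 array. The Ccl5 call was lost with median scaling (0.157), with a signal floor (0.12) and in 8 of the 12 fits.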

How the data were processed

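The members and gene lists were chosen with earlier results of these data known. The authors deposited, for each probe and array, a background-subtracted intensity (linear, not normalised between arrays) and a detection p-value. GenomeStudio produced them, per the submitters' processing notes, with no version given. A second table of intensity values was deposited with an unknown scaling step. Its column medians were 4.3, 4.8 and 5.2 (0, 6 and 24 h, replicate 1), 4.2, 4.6 and 4.4 (replicate 2), 3.4, 2.9 and 2.7 (Th9) and 3.1, 3.4 and 3.2 (Th9 after IL-7). It was not used, because its values correlated at -0.008 to 0.002 (Spearman) with those of the same probe names in the first table. Symbols came from the platform's annotation table, in which 34885 probes had 1 symbol, 18 several and 10378 none. Of 19057 symbols, 19034 were found in the RefSeq table (GRCm38.p6). No source used here gives the genome build of the probes.

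The function neqc of limma 3.58.1 (R 4.3.3) corrected the background with a normexp model, applied quantile normalisation and gave log2 values (offset 16), within each experiment and, for the difference between effects, over all arrays. Each gene was represented by its brightest probe among those passing the filter. Moderated tests (lmFit, eBayes) were 2-sided, fitted across all features, adjusted by Benjamini and Hochberg and called at 0.05. They were tested on simulated data. The number of arrays limits the precision. For a group with no detected array, the fold is a bound that sets the group to the lowest detected level of each array. It compares group means, and is no strict minimum where the other group also holds an undetected array. The genes named are all members, the listed Th1 genes that were called and a few others that a sentence turns on. A rule that would name the genes most like a called member named none, because Tbx21, the member called, was tested in neither experiment alone. The alternatives were other scalings, a signal floor, no filter, every probe as a feature, a replicate block, the compared groups alone, and each array left out. Alternatives for the other Th1 genes and markers were added after the data were seen. Over all features tested, same-numbered arrays did not deviate together, so numbers were not used as pairs. The r was 0.06, 0.14 and -0.19 in the naive experiment and -0.06, -0.10 and 0.29 in the Th9 experiment. For Ifng and Il12rb2 in Th9 cells a replicate block did lower the SE, as given below.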

Additional observations from a re-analysis of the deposited data

Results flagged for a closer look

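Tbx21, the gene of T-bet, was called in the test of the difference between the experiments. The naive effect of 24 h minus the Th9 effect was -1.50 on the log2 scale (SE 0.36; limma, adjusted p = 0.0468). The gene was detected on 1 naive array, at 0 h, and on 2 Th9 arrays, both given IL-7, and it entered the fit through these, so the call is not independent of the filter. It was lost with no filter on dim probes (adjusted p = 0.11), with a signal floor (0.322) and in 9 of the 12 fits that leave out 1 array. At 6 h both naive arrays lay below both at 0 h, while all 3 Th9 arrays given IL-7 lay above all 3 without. Of all features tested, 32.2% lay apart in the first way and 6.36% in the second. With 6 h set to the lowest detected level of each array, its mean was 1.07-fold below that at 0 h. That is no strict minimum, because the mean at 0 h holds an undetected array. The opposition of the 6 h difference to the Th9 difference was not tested.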

How the results depend on the processing

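The counts of features called depended on the arrays and the settings. Against 1043 at 6 h, there were 519 with no filter on dim probes, 681 with the replicate block and 180 with the compared groups alone. Against 682 at 24 h, they were 211, 449 and 2466. Against 44 between 6 and 24 h, they were 7, 5 and 4, and 5 with a signal floor. Against 33 in Th9 cells, there were 17 with the floor, 4 with no filter and 15 with joint normalisation, and 23 with the replicate block. The difference between effects gave 459, and 309 to 543 under the other settings, of which 370 with the replicate block. With 1 array left out the counts ran from 3 to 2645 at 6 h, 1 to 2418 at 24 h, 0 to 1476 between these times, 8 to 62 in Th9 cells and 64 to 676 for the difference. The lowest came without an array at 0 or 24 h (naive and difference) or Th9 replicate 2, and the highest without a 6 h array or without replicate 3 of the Th9 cells given IL-7. Of 191 alternative values of members, 168 kept direction and side of the threshold, 8 gained a call, 12 lost one and 3 reversed. The reversed values were Ifng at 6 h (-0.11 to 0.86 with 1 array left out) and Cxcr3 at 6 h (-1.40 to 0.53) and between 6 and 24 h (-1.74 to 0.17). The cause was not tested. The replicate block changed no call of a member, with Tbx21 at an adjusted p of 0.0342 in the difference. In Th9 cells the block lowered the SE of Ifng from 0.29 to 0.15 (limma, adjusted p = 0.162). It lowered that of Il12rb2 from 0.40 to 0.21 (0.212) and left that of Il12rb1 at 0.16 (0.552). Among the further Th1 genes it ended the calls of Socs1 (0.0562) and Tnf (0.0511) at 24 h, Nkg7 between 6 and 24 h (0.104) and Ccl5 in the difference (0.0687). In the naive experiment Ifng had no value in the fits without 0 h or 6 h replicate 1, nor with the compared groups alone at 24 h. Signals near background limit Tbx21, Eomes, and Cxcr3 in Th9 cells.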

Other observations

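Cd44 also differed between the arrays at 6 h. It encodes an adhesion receptor that rises on activated and memory T cells, and had signals of 192.5 and 161.5 at 0 h, 327.3 and 45.7 at 6 h and 51.9 and 36.8 at 24 h. In Th9 cells it read 1987.1, 1280.5 and 1495.3 without IL-7 and 1085.5, 707.4 and 1471.2 after IL-7. Ccr7, a homing receptor of naive cells, stayed between 473.4 and 728.2 on the naive arrays and lay between 72.3 and 268.2 on the Th9 arrays. Ccl5, a chemokine of cytotoxic and memory T cells, read 1380 and 1052.6 at 0 h, 711.1 and 826.2 at 6 h and 978 and 705.6 at 24 h, and was detected on no Th9 array.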
